A study of Mus musculus with 18 samples.

Results

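Mef2a, Mef2c and Mef2d encode transcription factors of the myocyte enhancer factor 2 (Mef2) family. They were described here across mouse leukemia cells driven by 3 MLL fusion proteins, with and without a menin-MLL inhibitor. These 3 genes were taken by name from a table of 23418 genes. Mef2c was also chosen by its measured response in these libraries, which went in opposite directions between constructs. Its own values are therefore given as a description with no test, while Mef2a and Mef2d were tested. All 3 were among the 11238 genes that passed the filter on low values, an RPKM (reads per kilobase of gene length, scaled to each library's counted reads) of at least 1 in at least 3 of 18 libraries. The family's other gene, Mef2b, did not pass.

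Polyadenylated RNA was sequenced from C57BL/6 leukemia cells carrying MLL-AF9, MLL-AF6 or MLL-AF1p, fusions that join the N-terminal part of the histone methyltransferase MLL to different partners. Cells of each construct received 6 µM MI-2-2, a small molecule that blocks the binding of menin to MLL, or its solvent DMSO for 6 days, with medium and compound renewed on day 3. DMSO was at 0.25% in treated and control wells. Each of the 6 groups held 3 libraries, and all carried a fusion, so no untransformed control was among them. Whether each construct was 1 transformed line or several is not given in the sources used here, and neither is whether replicates were separate cultures, so p-values cover only how these libraries varied, and that variation may be technical. Counted reads ran from 21.18 to 56.3 M per library, and both MLL-AF1p groups came from the deepest libraries (48.88 M or more). Monocyte and macrophage markers (10 genes) and neutrophil granule genes (10 genes) were present in every library, whereas 6 of 8 B-lymphoid markers were under 1 RPKM in every library, and 3 of these were listed at 0 throughout.

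Mef2 proteins bind A/T-rich DNA as dimers through a MADS box and an adjoining Mef2 domain. At their targets they recruit class IIa histone deacetylases as corepressors, and kinases that phosphorylate those deacetylases send them out of the nucleus bound to 14-3-3 proteins. Mef2 proteins are themselves phosphorylated by the p38 and ERK5 mitogen-activated kinases, and they can also act downstream of calcineurin. In blood cells Mef2c is known for its part in monocyte and B-lymphoid development, and it is known as a gene raised by MLL fusions in leukemia stem cells.

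The RefSeq promoters of Mef2a and Jun are shown because both genes rose in every construct and both carry a perfect match to the Mef2 consensus site, and that of Mef2c because its RNA went another way. Each runs 5′ to 3′ on the gene's strand, from 250 bases before the start to 50 after it, in GRCm38.p6, with the consensus match in capitals. The windows are chr7:67372809-67373108 (minus strand) for Mef2a, chr4:95052173-95052472 (minus strand) for Jun and chr13:83503784-83504083 (plus strand) for the first of 3 listed Mef2c starts.
Mef2a: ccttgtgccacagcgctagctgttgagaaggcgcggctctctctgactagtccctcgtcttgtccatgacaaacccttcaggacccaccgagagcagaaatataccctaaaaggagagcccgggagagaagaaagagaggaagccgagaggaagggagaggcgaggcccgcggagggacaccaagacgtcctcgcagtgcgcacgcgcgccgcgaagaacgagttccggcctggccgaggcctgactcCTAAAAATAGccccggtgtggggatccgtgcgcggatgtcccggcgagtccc
Jun: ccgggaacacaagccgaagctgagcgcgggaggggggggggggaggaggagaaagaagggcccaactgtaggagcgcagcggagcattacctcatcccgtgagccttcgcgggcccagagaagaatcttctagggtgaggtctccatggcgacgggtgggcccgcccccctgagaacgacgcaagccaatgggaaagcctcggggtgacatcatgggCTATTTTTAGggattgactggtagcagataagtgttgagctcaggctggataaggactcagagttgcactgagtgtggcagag
Mef2c: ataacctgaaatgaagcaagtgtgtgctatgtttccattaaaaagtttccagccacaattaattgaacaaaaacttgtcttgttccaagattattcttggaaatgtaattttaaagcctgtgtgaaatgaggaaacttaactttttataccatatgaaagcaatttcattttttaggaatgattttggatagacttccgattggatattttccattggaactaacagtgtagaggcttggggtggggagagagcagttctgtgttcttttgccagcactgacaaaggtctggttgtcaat
The letters in capitals are CTAAAAATAG in Mef2a, beginning at position -2 from the start, and its reverse complement CTATTTTTAG in Jun, beginning at -33. This 10-base sequence, searched on both strands, was present in 36 of 32851 RefSeq promoters of this length (0.110%), and the looser Mef2 consensus in 3.19%. Neither was found in the Mef2d window or in the windows of the 3 Mef2c starts. Of 18 genes of the table with the exact letters, 7 were tested, Mef2a, Jun and Hdac5 among them. Of these 7, 4, 3 and 4 were called higher with MI-2-2 in MLL-AF9, MLL-AF6 and MLL-AF1p. Mef2a and Jun were shown because they rose, and both are among the higher calls of every construct. Part of these counts was therefore fixed in advance. Another 1, 2 and 0 were called lower, and Hdac5 fell in MLL-AF9 and MLL-AF6, as given below. Among all genes, 28.5%, 18% and 19.1% were called higher and 27.9%, 38.9% and 26.3% lower. Whether the site goes with the response was not tested. The windows also differed in composition: Mef2a held 62.3% G and C with 27 CG pairs, Mef2d 72.0% with 24, and the first Mef2c start 35.7% with 1. The other Mef2c starts held 47.0% with 10 and 48.3% with 4. Which start these cells use was not tested.

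Mef2c was almost silent in MLL-AF9 cells under DMSO, where its RPKM was 0.102, 0.0570 and 0.0781 in the 3 libraries, from 16 to 29 reads each. In MLL-AF6 cells under DMSO it was 8.92, 9.95 and 9.25, and in MLL-AF1p cells 7.92, 8.83 and 8.11. The means under DMSO were 0.0791 ± 0.0226, 9.37 ± 0.526 and 8.28 ± 0.482 RPKM (SD, n = 3), 118-fold higher in MLL-AF6 and 105-fold higher in MLL-AF1p than in MLL-AF9. No library of either came near the MLL-AF9 range, and the lowest MLL-AF6 library lay above the highest of MLL-AF1p.

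With MI-2-2, Mef2c was higher in MLL-AF9 and lower in the other constructs, which brought MLL-AF9 closer to them. MLL-AF9 libraries gave 1.42, 2.15 and 1.49 RPKM, a mean of 1.69 ± 0.404 (SD, n = 3), which was 21.3-fold above DMSO. MLL-AF6 libraries gave 2.00, 2.38 and 2.29, a mean of 2.22 ± 0.200, with the DMSO mean 4.22-fold higher. MLL-AF1p libraries gave 2.96, 2.89 and 2.71, a mean of 2.85 ± 0.128, with the DMSO mean 2.90-fold higher. DMSO and treated libraries did not overlap within any construct (treated higher for 29.0% of all genes with MLL-AF9, lower for 41.5% and 40.3% in the MLL-AF6 and MLL-AF1p sets), but the treated MLL-AF9 and MLL-AF6 libraries overlapped each other. The treated means differed by 1.32-fold between MLL-AF6 and MLL-AF9 and by 1.69-fold between MLL-AF1p and MLL-AF9, so the order from high to low was MLL-AF6 DMSO, MLL-AF1p DMSO, MLL-AF1p MI-2-2, MLL-AF6 MI-2-2, MLL-AF9 MI-2-2 and MLL-AF9 DMSO. Of the B-lymphoid markers, Cd79b, a subunit of the B-cell receptor, averaged 0.0912, 2.32 and 1.52 RPKM under DMSO and 0.00974, 0.726 and 0.729 with MI-2-2. Of the DMSO groups, MLL-AF9 (first value) was also lowest. After treatment the Cd79b mean was lower in MLL-AF6 (second) and MLL-AF1p (last). It was also lower in MLL-AF9, where both means were very low and Mef2c rose. Blnk, an adaptor of B-cell receptor signalling, averaged 0.0732, 0.0443 and 0.128 under DMSO and 0.689, 3.06 and 0.486 with MI-2-2. The summed level of the 8 markers ran from 0.741 to 0.943 under DMSO and from 0.919 to 0.9754 with MI-2-2 for MLL-AF9, from 2.83 to 3.64 and from 3.60 to 4.33 for MLL-AF6, and from 2.03 to 2.36 and from 1.496 to 2.10 for MLL-AF1p. Their part in the Mef2c values was not tested.

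**Figure D1:**
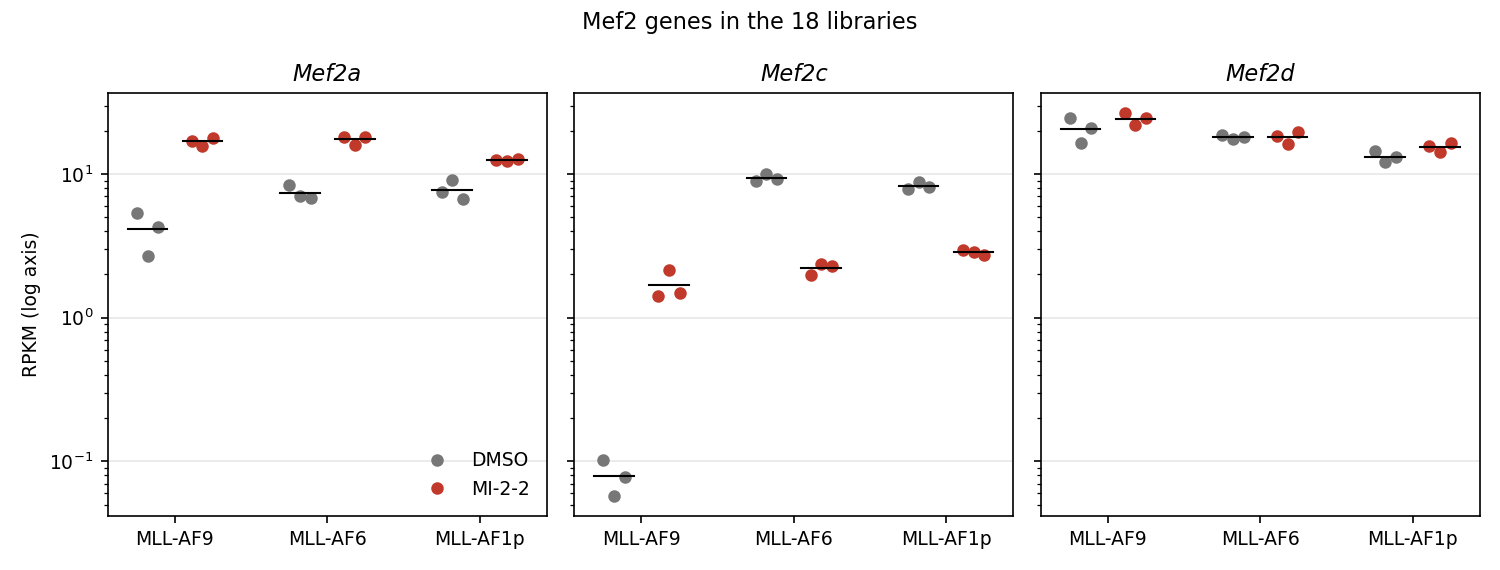
RPKM of Mef2a, Mef2c and Mef2d in each of the 18 libraries on a log axis, by construct and treatment, with bars at the means of 3 libraries. Mef2c stood at 0.0791 RPKM in MLL-AF9 under DMSO and between 1.69 and 2.85 in all 3 treated groups, while Mef2a was higher in every treated group and Mef2d overlapped.

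On the scale of the test, mean log2(RPKM + 0.5), the Mef2c difference between MI-2-2 and DMSO was 1.90 for MLL-AF9 cells, -1.86 for MLL-AF6 and -1.39 for MLL-AF1p. The added 0.5 RPKM exceeds the MLL-AF9 DMSO level and compresses the first of these, which was 3.30 with 0.1 RPKM added and 4.41 when whole reads recovered from the table were fitted with voom. Among all 11238 genes, 4 had a lower difference between the MLL-AF6 and MLL-AF9 effects than Mef2c (-3.76), and 5 a lower difference between MLL-AF1p and MLL-AF9 (-3.29). These differences share the MLL-AF9 libraries. Mef2c was chosen by its opposite movement between constructs, so its place among all genes describes that choice and is no test. Across all genes, 28.5% were called higher and 27.9% lower in MLL-AF9 (limma, adjusted p under 0.05). For MLL-AF6 these shares were 18% and 38.9%, and for MLL-AF1p 19.1% and 26.3%. With each library centred on its median, higher calls were 41.9% rather than 31.6% of the calls in MLL-AF6 and 41.2% rather than 50.5% in MLL-AF9. Of all genes, 74, or 0.658%, were called higher in MLL-AF9 and lower in both other constructs, the pattern by which Mef2c was chosen.

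**Figure D2:**
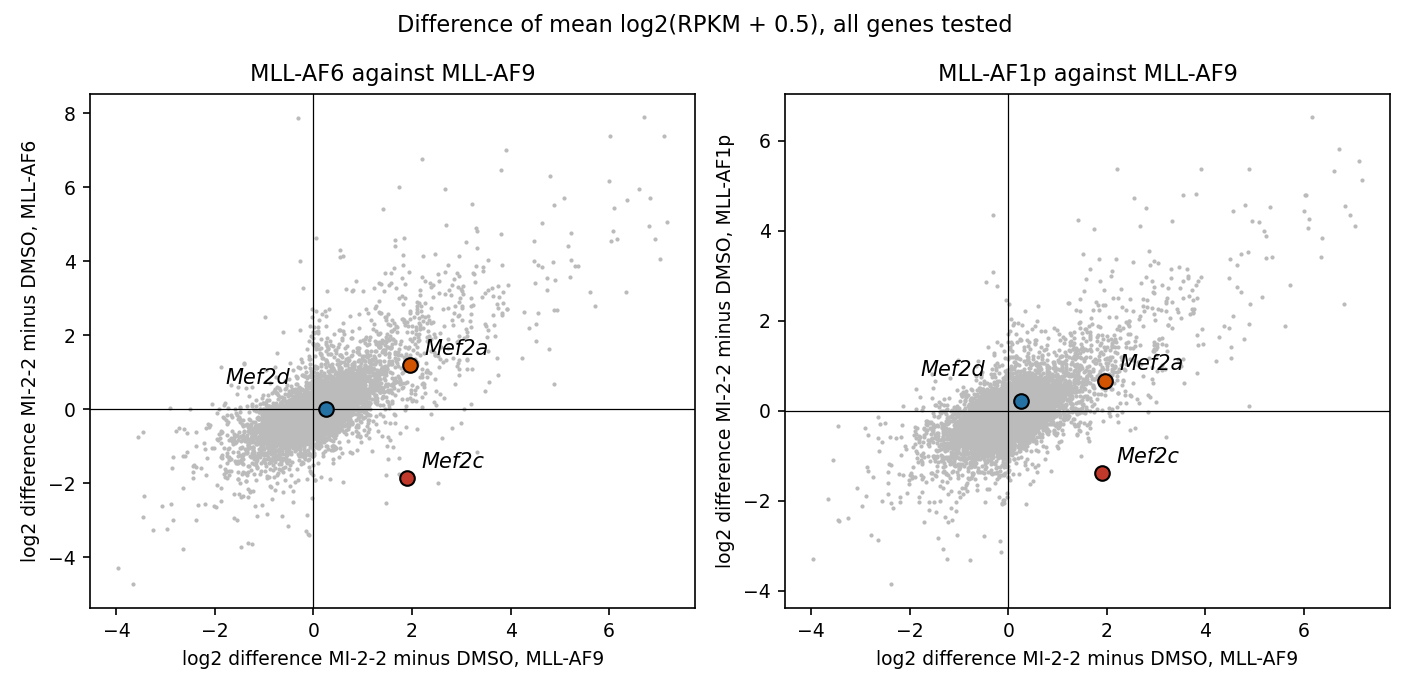
Difference of mean log2(RPKM + 0.5) between MI-2-2 and DMSO for the 11238 genes tested, MLL-AF9 on the x axis and MLL-AF6 (left) or MLL-AF1p (right) on the y axis. Mef2c lay at 1.90 and -1.86 on the left and at 1.90 and -1.39 on the right, Mef2a was above 0 on all axes, and Mef2d lay near the centre of the cloud.

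Mef2a rose with MI-2-2 in all 3 constructs. With MLL-AF9 it went from 5.38, 2.68 and 4.30 RPKM under DMSO to 17.1, 15.7 and 17.8, a 4.10-fold difference of means (4.12 ± 1.36 and 16.9 ± 1.07, SD, n = 3). In MLL-AF6 it went from 8.43, 6.98 and 6.86 to 18.2, 15.8 and 18.2, or 2.35-fold (7.42 ± 0.874 and 17.4 ± 1.37). In MLL-AF1p it went from 7.55, 9.05 and 6.70 to 12.5, 12.4 and 12.8, or 1.62-fold (7.77 ± 1.19 and 12.6 ± 0.227). Every treated library lay above every DMSO library of its construct, as it did for 29.0% of all genes with MLL-AF9, 19.4% with MLL-AF6 and 28.9% with MLL-AF1p. An F test over the 3 responses was passed by Mef2a (limma adjusted p = 0.0013) and by 52.8% of all genes.

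The log2 differences of Mef2a were 1.95 for MLL-AF9 (SE 0.165, limma adjusted p = 8.5e-08), 1.18 for MLL-AF6 (adjusted p = 2.2e-05) and 0.67 for MLL-AF1p (adjusted p = 0.00383). Of all genes, 277, 550 and 765 had a higher value in the same comparisons. The rise was smaller in MLL-AF1p than in MLL-AF9 by 1.28 (95% interval of MLL-AF1p minus MLL-AF9 -1.78 to -0.79, limma adjusted p = 0.000724), where 35.1% of genes were called in either direction. It was smaller in MLL-AF6 than in MLL-AF9 by 0.77 (adjusted p = 0.0194, with 33.1% of genes called), a call lost with each library centred on its median (-0.61, adjusted p = 0.0564) or quantile normalized (-0.61, adjusted p = 0.0630). Between MLL-AF1p and MLL-AF6 the difference was -0.51 (95% interval -1.01 to -0.01, adjusted p = 0.11, with 31.1% called). That value passed the threshold without MLL-AF9 DMSO replicate 1 (adjusted p = 0.0481) or replicate 2 (adjusted p = 0.0183), libraries that enter it only through the shared spread.

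Before treatment, Mef2a was 1.8-fold higher in MLL-AF6 and 1.88-fold higher in MLL-AF1p than in MLL-AF9 (log2 differences 0.82 and 0.87, limma adjusted p = 0.000665 and 0.000262). The share of all genes called in these comparisons was 53.6% and 65.1%. MLL-AF1p and MLL-AF6 differed by 0.06 (adjusted p = 0.794, with 52.5% of genes called). With MI-2-2 the means of MLL-AF6 and MLL-AF9 were 1.03-fold apart, and MLL-AF6 was 1.38-fold above MLL-AF1p. MLL-AF9 was therefore lowest for Mef2a, as for Mef2c, under DMSO, and for Mef2c both other constructs were less far above it after treatment.

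Summed markers of maturing myeloid cells were higher with MI-2-2 in every construct, as was Mef2a, whereas Mef2c was lower in MLL-AF6 and MLL-AF1p. The summed RPKM of 10 monocyte and macrophage genes had medians of 703 (DMSO) and 5257 (MI-2-2) for MLL-AF9 cells, 2522 and 12977 for MLL-AF6, and 648 and 4431 for MLL-AF1p. For 10 neutrophil granule genes the medians were 3418 and 28504, 3019 and 18927, and 3717 and 32618. In these bulk libraries, fewer cells of a type and less RNA per cell cannot be told apart, and the part of these markers in the Mef2 values was not tested. Within MLL-AF9 DMSO the macrophage sum ran from 559.8 to 1892.

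Mef2d showed no call for MI-2-2 in any construct in the main fit. In MLL-AF9 its RPKM averaged 20.6 ± 4.05 under DMSO (16.5 to 24.6) and 24.4 ± 2.43 with MI-2-2 (21.9 to 26.7). The MLL-AF6 averages were 18.1 ± 0.696 and 18.1 ± 1.77, and those of MLL-AF1p were 13.2 ± 1.15 and 15.5 ± 1.04 (SD, n = 3). DMSO and treated libraries overlapped in all 3 constructs. The log2 differences were 0.25 (95% interval -0.01 to 0.50, limma adjusted p = 0.0882), -0.00 (-0.26 to 0.25, adjusted p = 0.986) and 0.22 (-0.04 to 0.47, adjusted p = 0.15), where 56.4%, 57.0% and 45.4% of genes were called. Without MLL-AF9 DMSO replicate 1, the value in MLL-AF9 was 0.38 and passed (adjusted p = 0.00873), and with the MLL-AF1p libraries fitted alone the value in MLL-AF1p passed (adjusted p = 0.0424). Both constructs also passed in a fit with replicate number as a block, given in the last section.

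No pair of constructs differed in the response of Mef2d (differences -0.25, -0.03 and 0.22, limma adjusted p = 0.269, 0.902 and 0.345). Its DMSO level was lower in MLL-AF1p than in MLL-AF9 by 0.60 and than in MLL-AF6 by 0.44 on the log2 scale (adjusted p = 0.000399 and 0.00651). MLL-AF6 and MLL-AF9 differed by -0.17 (adjusted p = 0.257), which became -0.31 and passed (adjusted p = 0.0224) without MLL-AF9 DMSO replicate 2. The uncharacterized transcript 1700113A16Rik overlaps the end of Mef2d on the opposite strand in GENCODE M21, and the library kit does not mark strand, so reads there cannot be assigned with certainty. Its own values fell in MLL-AF9 (-0.42, adjusted p = 0.00185) and MLL-AF6 (-0.33, adjusted p = 0.0087), and it was -0.20 in MLL-AF1p (adjusted p = 0.1).

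Mef2b, a shorter family member best known from germinal-centre B cells, was low throughout. Its mean was 0.718 ± 0.402 RPKM in MLL-AF9 under DMSO and 0.398 ± 0.0733 with MI-2-2 (SD, n = 3). In the other 4 groups the means lay between 0.0673 and 0.147 RPKM, from 1 to 25 reads per library.

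The share of each gene in the summed RPKM of Mef2a, Mef2c and Mef2d changed with treatment. Under DMSO, Mef2d made up 83.4% ± 2.11 of the sum for MLL-AF9, 51.8% ± 1.04 for MLL-AF6 and 45.3% ± 4.17 for MLL-AF1p (SD, n = 3). Mef2c made up 0.316%, 26.9% and 28.3% under DMSO and 3.99%, 5.93% and 9.25% with MI-2-2. Mef2a had 16.3%, 21.2% and 26.4% under DMSO against 39.4%, 46.2% and 40.7% with MI-2-2. The sum itself was 24.8 ± 5.43 RPKM under DMSO and 42.9 ± 2.86 with MI-2-2 for MLL-AF9, 34.9 ± 1.12 and 37.7 ± 2.98 for MLL-AF6, and 29.3 ± 1.21 and 30.9 ± 1.17 for MLL-AF1p. DMSO and treated sums overlapped in MLL-AF6 and MLL-AF1p but not in MLL-AF9.

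These shares depend on the gene length used. The deposited table gives 12774 bases for Mef2c, 2886 for Mef2a and 2470 for Mef2d, whereas the longest GENCODE M21 transcripts have 6277, 5538 and 5401 bases. Scaled by those transcripts, Mef2c made up 61.1% ± 2.66 under DMSO and 20.7% ± 2.57 with MI-2-2 for MLL-AF6, 62.5% ± 1.81 and 29.9% ± 1.64 for MLL-AF1p, and 1.36% ± 0.0909 and 14.8% ± 4.03 for MLL-AF9 (SD, n = 3). Which of the genes ranked highest under DMSO in MLL-AF6 and MLL-AF1p thus turned on the length, while the direction of the Mef2c and Mef2a shares with treatment was the same under both lengths. That of Mef2d in MLL-AF6 was not, with 51.8% and 47.9% by the table's lengths and 26.5% and 37.8% by the longest transcripts.

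**Figure D3:**
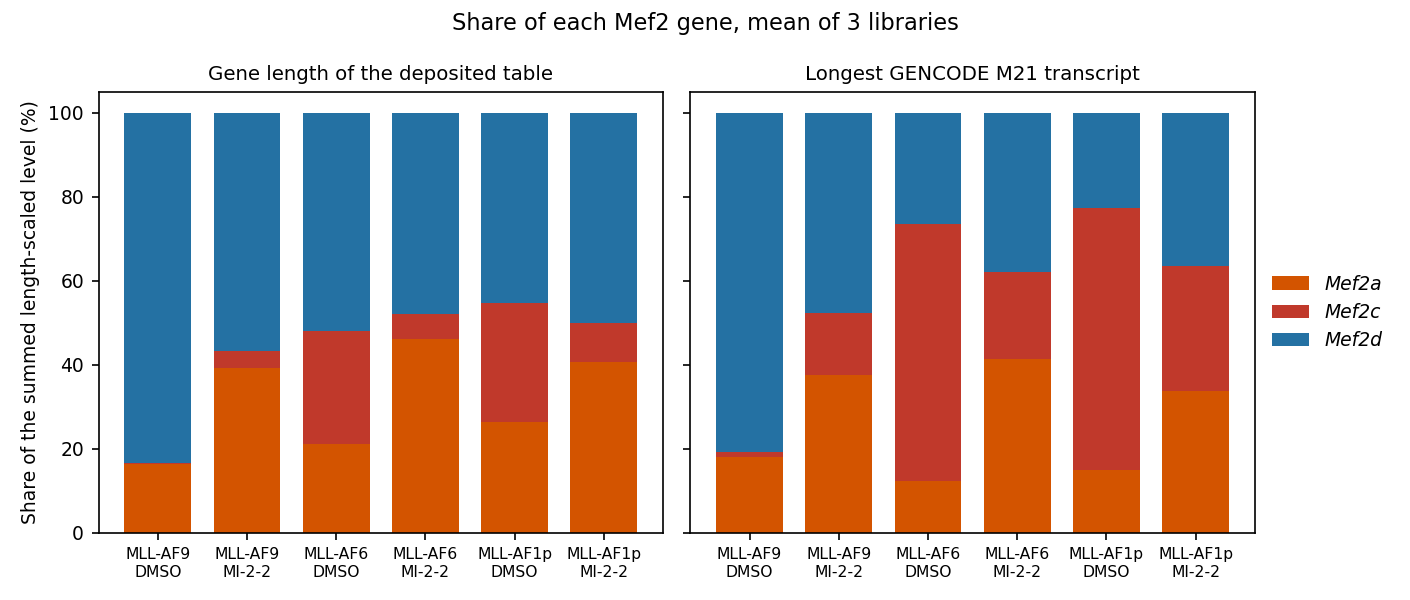
Mean share of Mef2a, Mef2c and Mef2d in their summed length-scaled level in the 6 groups, as percent, with the gene lengths of the deposited table (left) or the longest GENCODE M21 transcripts (right). The Mef2c share in MLL-AF6 went from 26.9% to 5.93% on the left and from 61.1% to 20.7% on the right.

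Genes described elsewhere as Mef2 targets outside muscle rose for the most part. Of 12 listed, 9 were tested, and 9, 8 and 7 were called higher in MLL-AF9, MLL-AF6 and MLL-AF1p. Among all genes, 28.5%, 18% and 19.1% were called higher in these constructs. Listed targets that did not pass the filter on low values are left out of the counts. Egr3 passed it only through treated libraries, so its higher call with MLL-AF9 was in part fixed by the filter. The medians of the tested targets were 1.91, 1.65 and 0.93 on the log2 scale beside -0.00, -0.16 and -0.06 for all genes. Most of the listed targets are immediate-early or Krüppel-like factors that many other stimuli also induce. Jun, a subunit of the AP-1 factor, stood at 2.94 ± 1.13, 4.82 ± 2.66 and 1.83 ± 0.264 RPKM under DMSO and at 43.5 ± 1.99, 35.0 ± 4.58 and 14.3 ± 0.643 with MI-2-2 (SD, n = 3, constructs as before). Its log2 differences were 3.73, 2.85 and 2.67 (limma adjusted p = 1.43e-08, 3.38e-07 and 1.26e-06).

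Egr1, an early growth response factor, stood at 1.15, 0.208 and 0.215 RPKM under DMSO and at 108, 30.1 and 13.2 with MI-2-2. Klf4, a Krüppel-like factor that promotes monocyte differentiation, rose by 1.85, 3.37 and 2.87 on the log2 scale, and its difference between MLL-AF6 and MLL-AF9 (1.52, limma adjusted p = 0.000154) was not called with voom on whole reads (0.74, adjusted p = 0.408). Egr3 averaged 0.0776, 0.00841 and 0.00959 RPKM under DMSO and 10.4, 0.873 and 0.602 with MI-2-2. Klf2, a factor of quiescent leukocytes, rose in MLL-AF9 and MLL-AF6 (1.91 and 1.65) and was -0.23 in MLL-AF1p (adjusted p = 0.276), a difference from MLL-AF9 of -2.14 (adjusted p = 1.18e-05). Nr4a1, an orphan nuclear receptor, rose by 1.74 with MLL-AF9 and by 0.83 with MLL-AF6, and its 0.50 in MLL-AF1p (adjusted p = 0.0355) was not called without MLL-AF1p DMSO replicate 2 (0.39, adjusted p = 0.137). Rgs2, a regulator of G-protein signalling named after its values were seen, was the gene that fell in MLL-AF1p. None of 8 muscle targets was tested, and 6 of them were under 1 RPKM in every library.

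**Figure D4:**
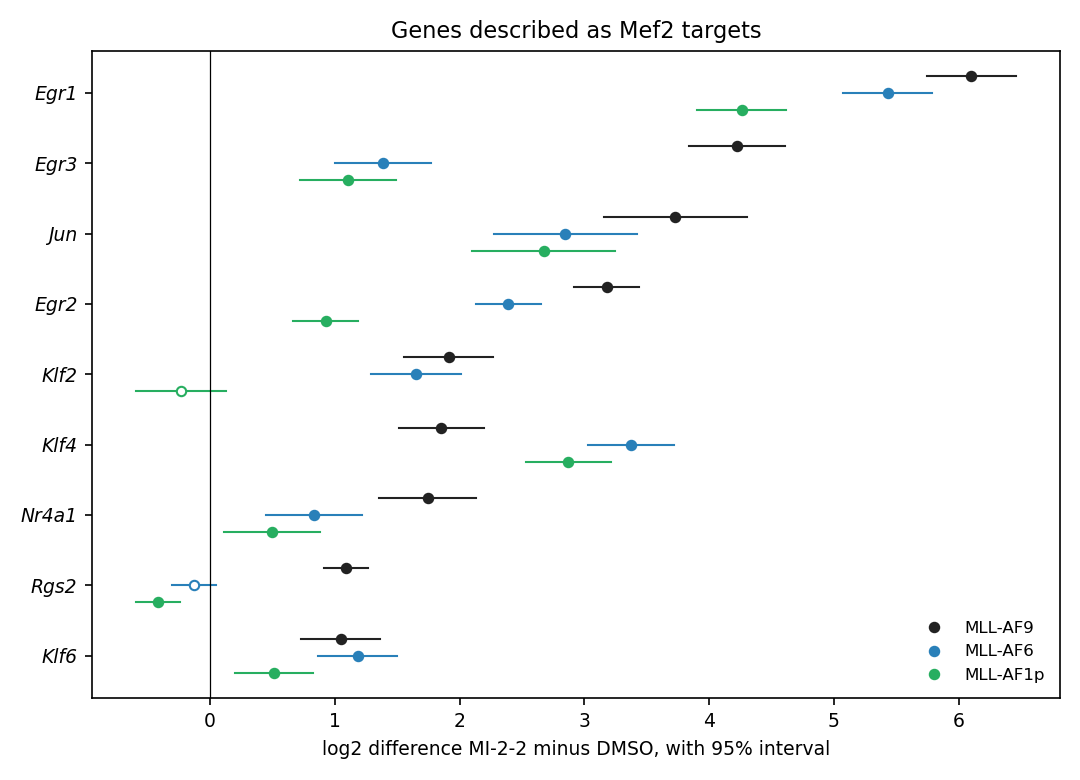
Log2 difference between MI-2-2 and DMSO with its 95% interval for the 9 tested genes described as Mef2 targets, by construct, filled where called (adjusted p under 0.05). All 9 were called higher with MLL-AF9, 8 with MLL-AF6 and 7 with MLL-AF1p, with Klf2 open and Rgs2 lower in MLL-AF1p. Egr3 passed the filter on low values only through treated libraries. Among all genes, 28.5%, 18% and 19.1% were called higher.

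The corepressors of Mef2 went in different directions. Of 7 tested, 2, 1 and 3 were called higher and 3, 5 and 1 lower in MLL-AF9, MLL-AF6 and MLL-AF1p, with medians of -0.11, -0.29 and 0.10. Among all genes, 28.5%, 18% and 19.1% were called higher and 27.9%, 38.9% and 26.3% lower. The medians of all genes were -0.00, -0.16 and -0.06. Hdac7, a class IIa deacetylase of lymphoid and endothelial cells, fell in all 3 (-0.86, -1.44 and -0.85, limma adjusted p = 2.42e-05, 1.05e-07 and 4.8e-05), from 2.96 to 1.40 RPKM, from 3.03 to 0.803 and from 2.92 to 1.38. Hdac4, a related deacetylase, rose in all 3 (1.35, 0.47 and 0.43, adjusted p = 1.11e-07, 0.00281 and 0.00742), and by more in MLL-AF9 than in MLL-AF6 or MLL-AF1p (adjusted p = 0.00104 and 0.000661). Its treated mean was 6.67 RPKM with MLL-AF9 and 6.60 with MLL-AF6, against 2.34 and 4.62 under DMSO. Hdac5 fell in MLL-AF9 (-0.36, adjusted p = 0.00808) and in MLL-AF6 (-0.29, adjusted p = 0.0252, not called after median centring, adjusted p = 0.106). Hdac9 was at 0.14 RPKM or lower in all group means. Ncor1, a scaffold that joins nuclear receptors to deacetylases, fell in MLL-AF6 (-0.55, adjusted p = 0.000417). It was also called lower in MLL-AF9 (-0.31), but not with that construct fitted alone (limma adjusted p = 0.1003).

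Among 13 tested kinases that act on class IIa deacetylases, 6, 4 and 8 were called higher and 1, 4 and 0 lower in MLL-AF9, MLL-AF6 and MLL-AF1p (medians 0.27, -0.04 and 0.27). The shares and medians of all genes are those given above for the corepressors. Sik1, a salt-inducible kinase, rose in MLL-AF6 and MLL-AF1p (1.66 and 1.30, limma adjusted p = 4.22e-06 and 7.59e-05), and its 0.63 in MLL-AF9 (adjusted p = 0.0128) was not called without MLL-AF9 DMSO replicate 1 (adjusted p = 0.0656). Sik3, which in human leukemia cells keeps MEF2C active by restraining HDAC4, rose in MLL-AF9 (0.53, adjusted p = 0.000186) and was -0.04 in MLL-AF6 (adjusted p = 0.726). Its 0.27 in MLL-AF1p (adjusted p = 0.0302) was not called when any of 4 libraries of that construct was left out (adjusted p from 0.0674 to 0.0971). Stk11 (LKB1), the kinase upstream of the salt-inducible kinases, fell in MLL-AF6 (-0.37, adjusted p = 9.51e-05) and rose in MLL-AF1p (0.21, adjusted p = 0.0114). It was also called lower in MLL-AF9 (-0.17), but not with that construct fitted alone (limma adjusted p = 0.123).

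The calmodulin-dependent kinase gene Camk1 rose in all 3 constructs (0.78, 1.46 and 0.59, limma adjusted p = 6.28e-08, 3.53e-11 and 2.42e-06). Camk1d, which passed the filter on low values only through treated libraries, averaged 0.122 RPKM under DMSO and 2.18 with MI-2-2 for MLL-AF6. For MLL-AF1p it averaged 0.0411 and 0.739, and both constructs were called higher. In MLL-AF9 it was at 0.00421 and 0.0406 RPKM, a log2 difference of 0.10 (adjusted p = 0.386) that voom on whole reads gave as 3.13 and called (adjusted p = 0.00122). Of 6 tested mitogen-activated kinases of the p38 and ERK5 branches, 2 were called higher in each construct and 3, 4 and 2 lower. The shares of all genes called are again those given for the corepressors. Mapk13 (p38 delta) rose by 1.33, 2.02 and 1.51 and Mapk7 (ERK5) by 0.70, 0.73 and 0.49 in MLL-AF9, MLL-AF6 and MLL-AF1p. Map2k6, a kinase upstream of p38, fell by 1.12, 0.91 and 1.34, and Mapk14 (p38 alpha) fell in MLL-AF6 by 0.42 (adjusted p = 2.1e-06). Mapk14 was also called lower in MLL-AF9 (-0.15), but not with that construct fitted alone (limma adjusted p = 0.123).

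**Figure D5:**
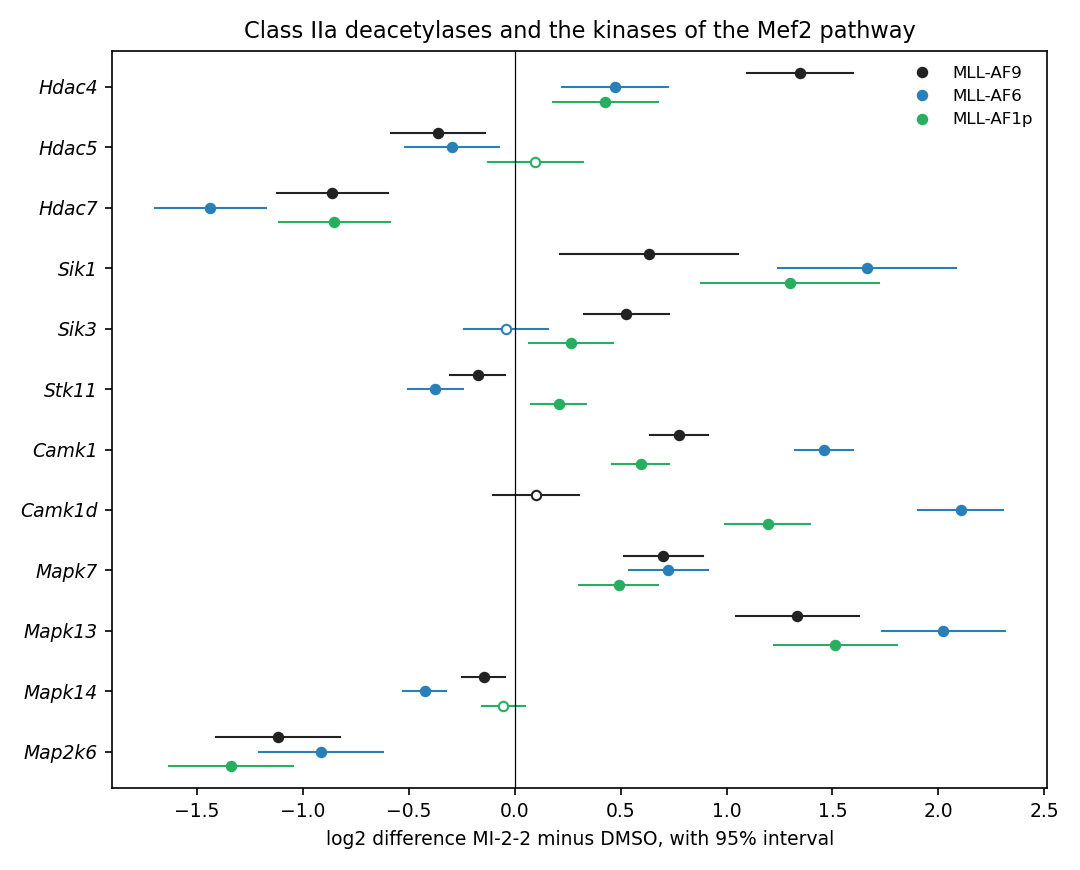
Log2 difference between MI-2-2 and DMSO with its 95% interval for 12 deacetylase and kinase genes of the Mef2 pathway, by construct, filled where called (adjusted p under 0.05). Hdac7 and Map2k6 were lower and Hdac4, Sik1, Camk1, Mapk7 and Mapk13 higher in all 3 constructs.

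Of 9 tested calcineurin and NFAT genes, 4, 3 and 1 were called higher and 0, 1 and 2 lower. Rcan3, an inhibitor of calcineurin, rose in MLL-AF9 and MLL-AF6 (0.54 and 0.52, limma adjusted p = 5.13e-06 and 8.55e-06), and Ppp3cc, a catalytic subunit, fell in MLL-AF1p (-0.74, adjusted p = 0.00728). Of 7 coactivators, 4, 1 and 1 were called higher and 0, 3 and 0 lower. Crebbp, a histone acetyltransferase, rose in MLL-AF9 (0.72, adjusted p = 0.000392) and was -0.16 in MLL-AF6 (adjusted p = 0.327), and the responses differed (-0.88, adjusted p = 0.00327). Kat2b, another acetyltransferase, fell in MLL-AF6 (-0.70, adjusted p = 0.000529). It was called higher in MLL-AF9 (0.39), but not with that construct fitted alone (limma adjusted p = 0.121). Of 7 genes for 14-3-3 proteins, 2, 0 and 3 were called higher and 0, 0 and 1 lower, led by Ywhah in MLL-AF9 (0.65, adjusted p = 4.5e-07). In MLL-AF6, Sfn, Ywhah and Ywhaz were each called under another setting or without 1 library, Sfn with -0.47 without MLL-AF6 DMSO replicate 2 (adjusted p = 0.00296). Over 60 tested pathway genes, 30, 19 and 26 were called higher and 8, 18 and 7 lower, with medians of 0.29, -0.02 and 0.16. Egr3 and Camk1d, which passed the filter only through treated libraries, are among them. Of all genes, 28.5%, 18% and 19.1% were called higher and 27.9%, 38.9% and 26.3% lower.

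Of 3 regulators described upstream of Mef2c in blood cells, 2 were tested. Sfpi1, the table's name for the myeloid factor PU.1, rose in MLL-AF9 (0.30, limma adjusted p = 0.00994, not called after quantile normalization, adjusted p = 0.0524) and MLL-AF1p (0.61, adjusted p = 5.96e-05). Cebpa, a factor of granulocyte and monocyte progenitors, fell in MLL-AF9 and MLL-AF6 by 1.67 each and was -0.29 in MLL-AF1p (adjusted p = 0.11). Under DMSO, Sfpi1 stood at 246, 239 and 103 RPKM and Cebpa at 119, 177 and 107 in MLL-AF9, MLL-AF6 and MLL-AF1p. Mir223 was listed at 0 in every library, and libraries from polyadenylated RNA do not hold mature miRNAs.

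The 3 nearest protein-coding genes of the table on each side of each member gave 18 neighbours, of which 12 were tested, and 2, 2 and 1 were called higher and 3, 3 and 1 lower, where 56.4%, 57.0% and 45.4% of all genes were called in either direction. All 6 neighbours of Mef2c were tested, and in MLL-AF6 and MLL-AF1p none was called by limma, although Polr3g and Ccnh were called lower in MLL-AF6 without MLL-AF6 DMSO replicate 1 (-0.55 and -0.42, adjusted p = 0.00552 and 0.0119). With the MLL-AF1p libraries fitted alone, 4 were called lower there, Rasa1, Ccnh, Tmem161b and Cetn3 (-0.24 to -0.17). The neighbour Rasa1, a negative regulator of Ras, rose in MLL-AF9 (0.46) and the neighbour Mblac2 fell (-0.34, not called without MLL-AF9 DMSO replicate 1, adjusted p = 0.164). Next to Mef2d, Iqgap3, a scaffold of dividing cells, rose by 1.12, 0.81 and 0.35, the last not called without MLL-AF1p DMSO replicate 2 (0.23, adjusted p = 0.114). The non-coding gene C130071C03Rik, on the 3′ side of Mef2c, was listed at 0 in all 18 libraries.

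The genes with the most similar profiles over the 6 group means were found by the root mean square difference of centred log2 values. For Mef2a they were Tulp4, D1Ertd622e, Pag1, Gm10872 and Itgam, at 0.154 to 0.171 against a median of 0.792 over all genes. Itgam encodes the myeloid integrin CD11b. For Mef2c the closest gene, Nlrp10, lay at 0.524 and the fifth, Prkcz, at 0.617, with Gbp3, F2rl2 and Ptger4 between them and a median of 1.38 over all genes. For Mef2d they were Tagln, Mif4gd, Wbp7, Dlgap4 and Clptm1, at 0.0408 to 0.0606 against 0.407. Nlrp10 had log2 differences of 0.59 with MLL-AF9, -1.98 with MLL-AF6 and -1.35 with MLL-AF1p. With MLL-AF9 the values were 0.095 for Gbp3, 0.97 for F2rl2, 0.78 for Ptger4 and 0.21 for Prkcz. Each of these was negative with MLL-AF6 and MLL-AF1p. They were picked for their likeness to Mef2c, so their values are a description. Between members the distance was 0.718 for Mef2a and Mef2d, 1.40 for Mef2a and Mef2c and 1.54 for Mef2c and Mef2d.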

How the data were processed

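The deposited values are RPKM, which the authors gave in a single table of 23418 genes by 18 libraries beside each gene's length, per the file headers. Tools named in the submitters' processing notes, with no role for any, are HTSeq, edgeR, Bowtie2 2.0.0.7 and CASAVA 1.8.2, and the build is mm9. RPKM times length came out as whole multiples of a step per library (tolerance 0.05), which gave the reads and depth.

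Genes were tested in R 4.3.3 with limma 3.58.1. The model took log2(RPKM + 0.5), fitted 6 group means with 12 residual degrees of freedom, moderated the variance by a trend, and adjusted p over 11238 genes by Benjamini and Hochberg's method. Calls are adjusted p under 0.05. Differences on this scale understate changes of low genes. The procedure was tested on simulated data. The planned edgeR and DESeq2 fits assumed deposited counts and were not run, though whole reads could be recovered. Voom on the recovered reads was not planned and was added in their place.

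Members, lists and tests were chosen with earlier results of these data known. The named genes are the members, up to 4 genes per pathway list with the largest mean absolute log2 difference, tested neighbours, the 5 most similar genes per member and a fixed set of regulators. The values of 1 corepressor gene are not reported here, though the list counts include it. Promoter sequences and positions are from RefSeq (GRCm38.p6), a later build than the authors' mm9, and transcript lengths from GENCODE M21. All 3 members had a promoter entry. Matplotlib 3.10.9 under Python 3.11.15 drew the plots.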

Additional observations from a re-analysis of the deposited data

Results flagged for a closer look

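Mef2c was higher in every treated MLL-AF9 library, and lower in every treated MLL-AF6 and MLL-AF1p library, than in that construct's DMSO libraries. The MLL-AF6 and MLL-AF9 effects had a difference of -3.76 on the log2 scale. The difference was not tested, since the gene was chosen for it. Mef2a stood out because its rise was smaller in MLL-AF1p than in MLL-AF9, by a difference of -1.28 (limma adjusted p = 0.000724).

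The other genes were listed because the response to MI-2-2 differed between constructs in limma (adjusted p of the pair and of the F test under 0.05, a test that called 52.8% of all genes). For each, the pair with the largest difference is given on the log2 scale. In MLL-AF1p compared with MLL-AF9, the response was lower for Egr3 (-3.12), Klf2 (-2.14), Egr1 (-1.84), Nr4a1 (-1.25), Hdac4 (-0.92), Iqgap3 (-0.77), Rasa1 (-0.64), Ppp3r1 (-0.53), Rcan3 (-0.46) and Tmem161b (-0.39). It was higher for Cebpa (1.38) and Hdac5 (0.46). In MLL-AF6 compared with MLL-AF9 it was higher for Camk1d (2.00), Klf4 (1.52), Sik1 (1.03) and Mapk13 (0.69), and lower for Kat2b (-1.08), Crebbp (-0.88), Sik3 (-0.57), Ywhah (-0.54) and Lrrc28 (-0.42). In MLL-AF1p compared with MLL-AF6 it was higher for Sfn (0.86), Hdac7 (0.59), Stk11 (0.58), Cct3 (0.49), Sfpi1 (0.44) and Mapk14 (0.37), and lower for Camk1 (-0.86) and Ppp3cc (-0.86). The values for Egr3, Egr1, Camk1d and Klf4 depend on the 0.5 RPKM added before the log. In a comparison chosen after seeing the data, voom on whole reads gave -1.25, -0.74, 1.09 and 0.74, none of them called (adjusted p = 0.345, 0.101, 0.292 and 0.408). With 0.1 RPKM added they were -3.23, -1.14, 2.95 and 1.29, all called (adjusted p = 5.26e-05, 0.0145, 2.84e-06 and 0.00941). The other genes of this paragraph kept their call and direction in both. Ppp3r1 encodes the regulatory subunit of calcineurin, Sfn a 14-3-3 protein and Cct3 a chaperonin subunit.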

How the results depend on the processing

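The rise of Mef2a passed in every construct under every setting run, and no direction of a called Mef2 value reversed. Its difference between MLL-AF6 and MLL-AF9 was -0.61 and lost its call under either median centring or quantile normalization (adjusted p = 0.0564 and 0.0630), and that between MLL-AF1p and MLL-AF6 was -0.53 and called with voom (adjusted p = 0.0488). Without single libraries the latter ran from -0.60 to -0.40. The Mef2d value ran from 0.10 to 0.38 in MLL-AF9, and its DMSO difference between MLL-AF6 and MLL-AF9 from -0.31 to -0.0321. Mef2d in MLL-AF1p (0.22) was called with the construct fitted alone. For Mef2c, a pseudocount of 0.1 gave 3.30 in MLL-AF9, -2.03 in MLL-AF6, differences from MLL-AF9 of -5.34 (MLL-AF6) and -4.81 (MLL-AF1p), and DMSO differences of 5.73 and 5.55. Quantile normalization gave 1.60 in MLL-AF9, differences of -3.37 and -2.93 and DMSO differences of 3.83 and 3.64, and median centring a difference of -3.60. Voom gave 4.41, -2.09 and -1.54, differences of -6.50 and -5.95 and DMSO differences of 6.89 and 6.72. Without single libraries the MLL-AF9 value of Mef2c ran from 1.76 to 1.99 and its differences from -3.85 to -3.62 and from -3.38 to -3.14. Pathway genes called lower numbered 4 in MLL-AF9 with the construct fitted alone and 5 to 8 without single libraries, and 4 to 8 in MLL-AF1p. By Pearson's r over the 6 means, 0, 0 and 2 of the 5 most similar genes of Mef2a, Mef2c and Mef2d were shared. Of 144 named-gene results, 94 kept their call under every setting and none reversed. Median centring moved the share of higher calls in MLL-AF6 from 31.6% to 41.9%, in MLL-AF9 from 50.5% to 41.2% and in MLL-AF1p from 42.1% to 49.3%, and the median of all genes in MLL-AF6 was -0.16 before it. The planned edgeR and DESeq2 fits were not run. Mef2c in MLL-AF9 under DMSO rested on 74 reads in all.

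Replicate numbers were not used to pair the samples in the main fit. The correlations of same-numbered deviations ran from 0.0008 to 0.557, with 5 of 9 over 0.1. Those of differently numbered ones ran from -0.565 to 0.342, with 3 of 18 over 0.1. Under a replicate block, Mef2d was called in MLL-AF9 (0.25, adjusted p = 0.0131) and MLL-AF1p (0.22, adjusted p = 0.0309), and 6914, 7048 and 5938 genes were called in the 3 constructs against 6339, 6402 and 5103. Not every sample correlated best with its own number.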
